A study of Rattus norvegicus with 12 samples.

Results

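Of the 14217 genes measured in rat tibia, 10 genes of the circadian clock were followed across 4 dietary and hormonal groups: Per1, Per2, Per3, Cry1, Dbp, Tef, Nr1d1, Nr1d2, Bhlhe40 and Bhlhe41. They were found by symbol, as the probe sets to which the platform annotation gives exactly 1 gene symbol, and all 10 genes were measured, by 16 of 31042 probe sets. The samples were right tibiae of female Sprague-Dawley rats at postnatal day 34, from which the marrow had been aspirated, in 4 groups of 3 arrays. The SPI group was weaned to an AIN-93G diet with soy protein isolate as its protein. The E2 group received 17 beta-estradiol at 10 µg/kg/d from a subcutaneous osmotic pump on the casein diet, the SPI+E2 group received the same dose on the soy diet, and the CAS group received the casein diet alone. All rats were born to dams fed casein, and both diets held the same share of protein. Feeding lasted 14 days. Weaning to the diets was on postnatal day 20 by the methods, and the sample labels give day 21. Each array carried a pool of equal amounts of RNA from 2 to 3 rats, so that p-values measure the spread between pools. Whether rats without E2 carried a pump is not given in the sources used here.

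The circadian clock is a loop of transcription that nearly every cell of a mammal runs. The activators CLOCK and BMAL1 bind E-box sequences and switch on the Per and Cry genes, whose proteins return to the nucleus and block the activators. A second loop joins them, in which the nuclear receptors REV-ERB alpha and beta (Nr1d1 and Nr1d2) repress and the ROR receptors activate Bmal1, and outputs such as Dbp and Tef carry the rhythm to other genes through D-box sequences. In bone the clock runs in osteoblasts, chondrocytes and osteoclasts, and the transcripts of these genes climb and decline over the day. Rats were killed at a single time of day, 1 h after the lights came on (lights on from 6 to 18 h), and the order in which the groups were killed is not given in the sources used here. With a single time of day, a difference in phase and a difference in level of the rhythm cannot be told apart.

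RefSeq windows of assembly GRCr8, of 250 bases before a transcript's start, were found for 9 of the 10 clock genes and for 10 of 12 further clock regulators. Cry1 has none. Searches covered both strands for the E-box CACGTG, the related element CACGTT, the D-box TTATGTAA and the ROR and REV-ERB element TAGGTCA. Stretches are shown for Dbp and Nr1d1, which had the largest differences with SPI and with E2, and for Per2, Tef and Bmal1 as examples of each element, chosen for holding a match. Capitals mark the match, and AACGTG is CACGTT read on the other strand. The Dbp window holds none of the 4 elements, and its last 80 bases before the start are chr1:105312176-105312255 on the plus strand. The upstream of the 2 Nr1d1 starts has a CACGTT element, chr10:84231944-84232023 on the minus strand, and the D-box of Per2 is in chr9:99497142-99497221, also on the minus strand. Both lie before the gene's annotated span.
Dbp: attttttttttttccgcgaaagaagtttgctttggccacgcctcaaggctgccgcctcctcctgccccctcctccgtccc
Nr1d1, upstream start: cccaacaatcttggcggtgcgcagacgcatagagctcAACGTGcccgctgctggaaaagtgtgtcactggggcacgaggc
Per2, D-box: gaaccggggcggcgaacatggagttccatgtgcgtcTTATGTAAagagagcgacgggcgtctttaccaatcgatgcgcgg
The 4 matches that follow lie inside the annotated span of their gene, because the window belongs to a start that is not the outermost, and are shown as 30 bases. The start lies 2358 bases into the gene for the downstream start of Nr1d1 (chr10:84229628-84229657, minus strand) and 9647 bases into it for Tef (chr7:115206617-115206646, plus strand), each with an E-box. It lies 76 bases into Per2 (chr9:99497038-99497067, minus strand), with a CACGTT element, and 106 bases into Bmal1 (chr1:176766298-176766327, plus strand), with the ROR and REV-ERB element. Whether these sites are exonic or intronic was not analysed here.
Nr1d1, downstream start: tgtcagctcccaCACGTGtctggggatcct
Tef: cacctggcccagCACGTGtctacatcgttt
Per2, CACGTT: aacgcgcgcggtCACGTTttccactatgtg
Bmal1: gggaaggcagaaagTAGGTCAgggacggag
Among 33469 windows of the same length, 5.59% hold CACGTG, 4.07% CACGTT, 0.828% TTATGTAA and 2.26% TAGGTCA. Of the 10 windows of clock genes, 4 hold CACGTG, 2 CACGTT, 1 TTATGTAA and 0 TAGGTCA, and of the 11 windows of regulators, 0 hold CACGTG, 2 CACGTT, 0 TTATGTAA and 1 TAGGTCA. These matches describe the letters of the windows, and binding was not measured.

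Values are the deposited log2 values, which the authors had centred on each probe set's median, so they give differences between arrays and no level of a transcript. The value of a gene is the mean of its probe sets. Array medians lay between -0.0042 and 0.0072, and array SDs between 0.128 and 0.164 in 11 arrays and at 0.211 in SPI array 1, whose estimated array weight was 0.368 beside 0.724 to 1.81 in the others. Without SPI array 1, the count of clock genes called was 6 for SPI against CAS, 5 for SPI against E2 and 1 for the interaction, beside 6, 5 and 2 with it. Bone is the labelled tissue, and because the values are centred, the presence of osteoblast genes could not be read from them. All tests are limma fits over the 12 arrays with Benjamini-Hochberg adjustment over 14217 genes, and a gene was called at an adjusted p under 0.05.

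The clock genes differed among the 4 groups in 8 of 10 cases by the F test, where 35% of all genes did. Against CAS, the SPI diet went with higher Dbp, Tef, Per3, Nr1d1 and Nr1d2 and lower Cry1. E2 went with higher Nr1d1 and Nr1d2, and SPI+E2 with higher Dbp, Nr1d1, Nr1d2 and Per1. Bhlhe40 and Bhlhe41 were not called in any comparison. In counts, SPI gave 5 of 10 higher, where 10.7% of all genes were higher, and 1 lower, where 14.6% were. E2 gave 2 higher against a background of 6.98%, and 0 lower against 7.23%. SPI+E2 gave 4 higher against a background of 5.8%, and 0 lower against 7.06%. At an unadjusted limma p under 0.05, 1 of the 10 was lower with E2 (Per2) and 1 with SPI+E2 (Cry1). The share of all genes at an unadjusted p was not counted, here or for the unadjusted counts below. The E2 count was 1 without CAS array 1 or E2 array 3. The SPI+E2 count was 2 without any one of the 3 CAS arrays or without SPI+E2 array 1 or 2, and the F test count was 5 without CAS array 1 or 2. The 3 arrays of a treatment lay wholly apart from the 3 CAS arrays for 7 of 10 genes in SPI, for 5 in E2 and for 6 in SPI+E2, beside 40%, 34.5% and 34.3% of all genes. The median difference of the 10 genes with SPI was 0.15, that with E2 was 0.059 and that with SPI+E2 was 0.12, beside -0.01, -0.01 and 0.0048 for all genes. These 3 comparisons share the CAS arrays. In whole bone, fewer cells of a type and less RNA per cell cannot be told apart.

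**Figure D1:**
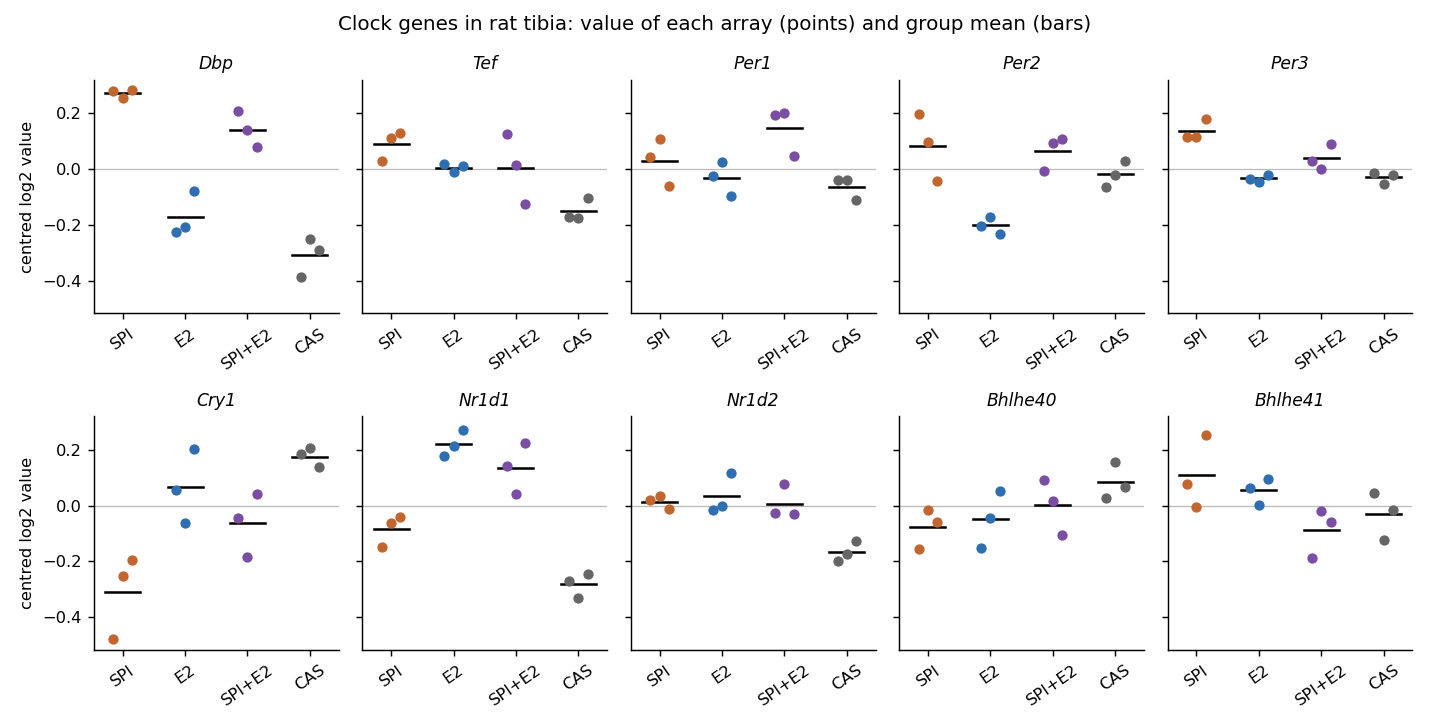
Centred log2 value of each of the 10 clock genes (vertical axis) in each array (points) of the SPI, E2, SPI+E2 and CAS groups (horizontal axis), with the group mean as a bar. The 4 groups of Dbp do not overlap, Cry1 lies lowest in SPI, and the CAS arrays of Nr1d1 and Nr1d2 lie below all other arrays.

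Dbp, the D-box binding activator whose transcript is among the most strongly rhythmic of all, had the largest difference of the 10 genes. Its gene lies at chr1:105312256-105317205 (GRCr8). It read 0.28, 0.26 and 0.28 in the SPI arrays, -0.23, -0.21 and -0.078 in the E2 arrays, 0.21, 0.14 and 0.078 in the SPI+E2 arrays and -0.39, -0.25 and -0.29 in the CAS arrays. The 4 groups did not overlap, in the order SPI, SPI+E2, E2 and CAS. Against CAS, Dbp was higher by 0.58 (SE 0.0535, adjusted p = 1.36e-05) log2 units with SPI and by 0.45 (SE 0.0535, adjusted p = 0.000278) with SPI+E2, while E2 alone gave 0.14 (SE 0.0535, adjusted p = 0.125). SPI exceeded E2 by 0.44 (SE 0.0535, adjusted p = 0.000131), and SPI+E2 exceeded E2 by 0.31 (SE 0.0535, adjusted p = 0.00226). The neighbours in the order that did not pass the test were SPI+E2 and SPI, which differed by -0.13 (SE 0.0535, adjusted p = 0.123), and E2 and CAS. All 4 calls of Dbp between pairs of groups held under every alternative run.

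Tef, a relative of Dbp that binds the same D-box, has the E-box shown above before an internal start. It read 0.03, 0.11 and 0.13 in the SPI arrays, 0.016, -0.011 and 0.0086 in the E2 arrays, 0.12, 0.013 and -0.13 in the SPI+E2 arrays and -0.17, -0.18 and -0.11 in the CAS arrays. The SPI arrays all lay above the CAS arrays, as did the E2 arrays, and the SPI+E2 arrays spread across the other groups. Tef was higher with SPI than in CAS by 0.24 (SE 0.0581, adjusted p = 0.0102). The differences from CAS were 0.16 (SE 0.0581, adjusted p = 0.108) with E2 and 0.15 (SE 0.0581, adjusted p = 0.106) with SPI+E2. Neither passed the test. Over the alternatives run, that of E2 passed in a fit of the 2 groups, with array weights, with the median over probe sets and without SPI+E2 array 3 (adjusted p between 0.0142 and 0.247), and that of SPI+E2 passed with the median over probe sets and without SPI+E2 array 3 (adjusted p between 0.0124 and 0.324).

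The Period genes encode the repressors that CLOCK and BMAL1 switch on. Per1, which also answers directly to glucocorticoids and to cAMP, read 0.042, 0.11 and -0.06 in the SPI arrays, -0.025, 0.025 and -0.10 in the E2 arrays, 0.19, 0.20 and 0.048 in the SPI+E2 arrays and -0.041, -0.042 and -0.11 in the CAS arrays. Only SPI+E2 lay wholly above CAS, by 0.21 (SE 0.0576, adjusted p = 0.033), and this call was lost in a fit of the 2 groups alone and without CAS array 1, 2 or 3 or SPI+E2 array 1 or 2 (adjusted p up to 0.117, difference 0.19 to 0.26). Tested as a single probe set among all probe sets, SPI+E2 against CAS was not called for Per1 (adjusted p = 0.0558). Against CAS the difference of Per1 was 0.095 (SE 0.0576, adjusted p = 0.264) with SPI and 0.033 (SE 0.0576, adjusted p = 0.806) with E2.

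Per2, whose window above holds a D-box and a CACGTT element, read 0.20, 0.10 and -0.043 in the SPI arrays, -0.20, -0.17 and -0.23 in the E2 arrays, -0.0065, 0.092 and 0.11 in the SPI+E2 arrays and -0.065, -0.022 and 0.029 in the CAS arrays. The E2 arrays lay below all 9 others, which overlapped. Per2 was higher with SPI than with E2 by 0.29 (SE 0.0591, adjusted p = 0.00451), and higher with SPI+E2 than with E2 by 0.27 (SE 0.0591, adjusted p = 0.0103). Against CAS it was not called, at 0.10 (SE 0.0591, adjusted p = 0.234) with SPI, -0.18 (SE 0.0591, adjusted p = 0.0625) with E2 and 0.083 (SE 0.0591, adjusted p = 0.402) with SPI+E2. The SPI difference passed the test only without SPI array 3 (adjusted p between 0.0423 and 0.619 over all alternatives). The E2 difference passed the test with array weights, with quantile normalization, in a fit of the 2 groups and without SPI array 1 or 3, with adjusted p between 0.0161 and 0.197 over all alternatives.

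Per3, the Period gene least needed for the rhythm itself in mice, read 0.11, 0.11 and 0.18 in the SPI arrays, -0.035, -0.046 and -0.021 in the E2 arrays, 0.026, 0.0004 and 0.09 in the SPI+E2 arrays and -0.015, -0.056 and -0.021 in the CAS arrays. The SPI arrays lay above all others. SPI exceeded CAS by 0.17 (SE 0.0387, adjusted p = 0.0087) and E2 by 0.17 (SE 0.0387, adjusted p = 0.00805). The SPI+E2 arrays also lay above the CAS arrays, with a difference of 0.07 (SE 0.0387, adjusted p = 0.275), which did not pass the test.

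Cry1 encodes the repressor that holds CLOCK and BMAL1 off longest, and its transcript normally peaks late in the cycle. It was the only one of the 10 genes to be called lower than in CAS. The values of Cry1 (chr7:20417526-20481791, GRCr8) were -0.48, -0.25 and -0.20 in the SPI arrays, 0.056, -0.061 and 0.20 in the E2 arrays, -0.043, -0.19 and 0.043 in the SPI+E2 arrays and 0.18, 0.21 and 0.14 in the CAS arrays. The SPI arrays were the 3 lowest of the 12. SPI gave -0.48 (SE 0.0854, adjusted p = 0.0016) against CAS and -0.37 (SE 0.0854, adjusted p = 0.00794) against E2. SPI+E2 lay wholly below CAS, with a difference of -0.24 (SE 0.0854, adjusted p = 0.0926) that passed the test only without SPI array 1, with array weights and with quantile normalization. E2 overlapped CAS, with -0.11 (SE 0.0854, adjusted p = 0.494).

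The REV-ERB receptors, which repress Bmal1, Npas2 and Nfil3, were higher than in CAS with all 3 treatments. Nr1d1 (chr10:84224599-84231812, GRCr8) read -0.15, -0.062 and -0.041 in the SPI arrays, 0.18, 0.21 and 0.27 in the E2 arrays, 0.14, 0.041 and 0.22 in the SPI+E2 arrays and -0.27, -0.33 and -0.24 in the CAS arrays. The CAS arrays were the 3 lowest, the SPI arrays came next without overlap, and the E2 and SPI+E2 arrays lay highest and overlapped each other. E2 exceeded CAS by 0.50 (SE 0.0532, adjusted p = 4.85e-05), and SPI+E2 exceeded CAS by 0.42 (SE 0.0532, adjusted p = 0.000438). SPI exceeded CAS by 0.20 (SE 0.0532, adjusted p = 0.0182), which was lost without CAS array 2 or SPI array 2 or 3 (adjusted p up to 0.067). SPI was lower than E2, with a difference of -0.31 (SE 0.0532, adjusted p = 0.00157), and SPI+E2 was higher than SPI, by 0.22 (SE 0.0532, adjusted p = 0.0146). The call of SPI+E2 over SPI was lost without SPI+E2 array 3 and in a fit of the 2 groups (adjusted p up to 0.0752). SPI+E2 and E2 did not differ beyond their spread, at -0.086 (SE 0.0532, adjusted p = 0.312).

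Nr1d2 read 0.021, 0.034 and -0.012 in the SPI arrays, -0.017, -0.001 and 0.12 in the E2 arrays, -0.028, 0.078 and -0.03 in the SPI+E2 arrays and -0.20, -0.17 and -0.13 in the CAS arrays. Again the CAS arrays were the 3 lowest, while the 3 treatments overlapped. The differences from CAS were 0.18 (SE 0.0477, adjusted p = 0.0165) with SPI, 0.20 (SE 0.0477, adjusted p = 0.0146) with E2 and 0.17 (SE 0.0477, adjusted p = 0.0356) with SPI+E2. Each of these calls was lost without CAS array 1. The SPI call was also lost without SPI array 2, the E2 call without E2 array 3, and the SPI+E2 call without CAS array 2 or 3 or SPI+E2 array 1 or 2 and in a fit of the 2 groups (adjusted p up to 0.065, 0.064 and 0.126 for SPI, E2 and SPI+E2). Among themselves the treatments differed by -0.019 for SPI against E2, -0.0078 for SPI+E2 against SPI and -0.026 for SPI+E2 against E2.

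Bhlhe40 and Bhlhe41 encode the DEC repressors, which compete with CLOCK and BMAL1 for E-boxes and also respond to other signals. Both windows hold CACGTG. Bhlhe40 read -0.16, -0.015 and -0.059 in the SPI arrays, -0.15, -0.046 and 0.052 in the E2 arrays, 0.093, 0.015 and -0.11 in the SPI+E2 arrays and 0.027, 0.15 and 0.068 in the CAS arrays. The SPI arrays lay below the CAS arrays, with a difference of -0.16 (SE 0.067, adjusted p = 0.106) that did not pass the test. Bhlhe41 read 0.076, -0.0033 and 0.25 in the SPI arrays, 0.063, 0.0033 and 0.10 in the E2 arrays, -0.19, -0.02 and -0.058 in the SPI+E2 arrays and 0.045, -0.12 and -0.016 in the CAS arrays. The SPI+E2 arrays lay below the SPI and E2 arrays, and the difference from SPI was -0.20 (SE 0.0706, adjusted p = 0.0802), which passed the test without SPI array 2.

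**Figure D2:**
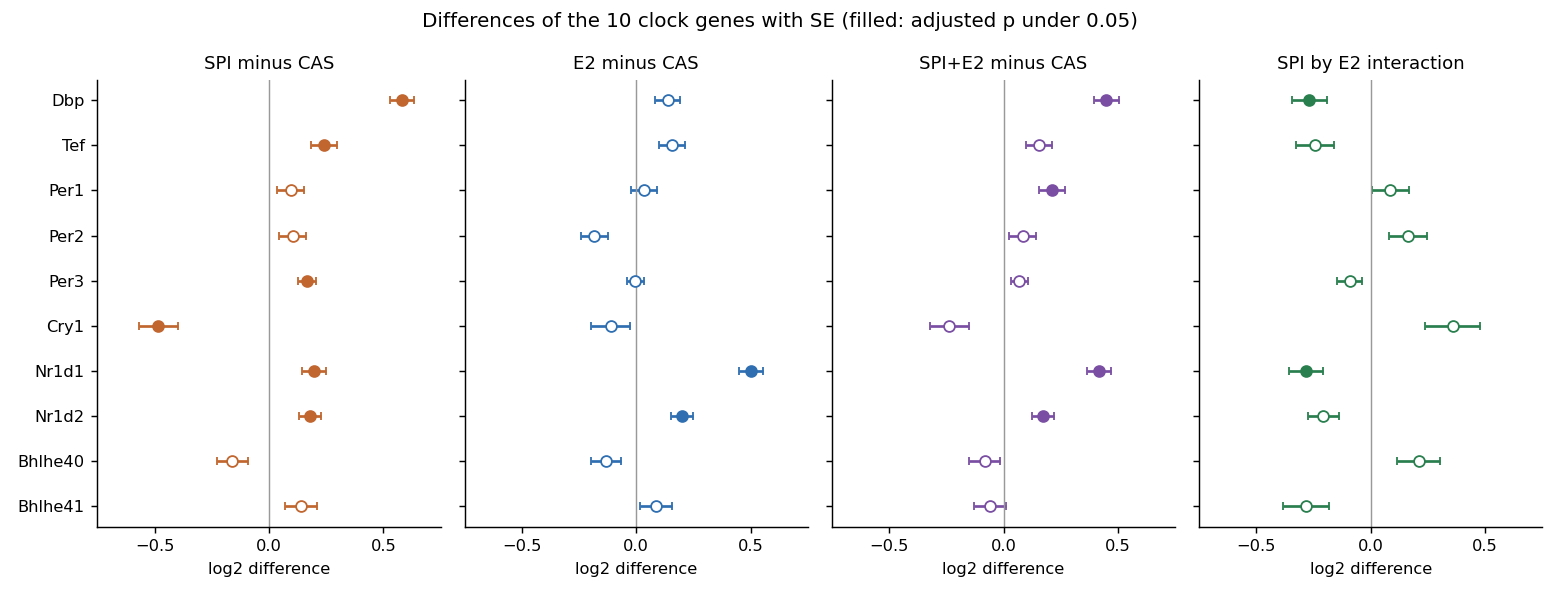
Log2 difference with its SE (horizontal axis) of each clock gene (rows) for SPI, E2 and SPI+E2 minus CAS, and the SPI by E2 interaction in the panel on the right, with filled points at an adjusted p under 0.05. Dbp leads with SPI at 0.58 and Nr1d1 leads with E2 at 0.50, and Cry1 is the only called gene below 0 in the 3 comparisons with CAS.

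The direct comparison of SPI with E2 asks whether soy acts on these genes as the estrogen does. SPI was higher than E2 for Dbp, Per2 and Per3, 3 of 10 where 11.1% of all genes were higher, and lower for Cry1 and Nr1d1, 2 of 10 where 13% were lower. All 5 were still called when any one of the 12 arrays was left out. Adding E2 to the soy diet gave 1 gene higher in SPI+E2 than in SPI, Nr1d1, against a background of 9.12%, and 0 lower against 8%. That count was 0 without SPI+E2 array 3 and 2 without SPI array 2 or 3 or SPI+E2 array 2. As a single probe set, 1 of the 2 of Per3 was called lower in SPI+E2 than in SPI, at -0.22 (SE 0.0578, adjusted p = 0.028). Adding soy under E2 gave 2 genes higher in SPI+E2 than in E2, Dbp and Per2, against a background of 7.32%, and 0 lower against 8.23%. All 3 SPI+E2 arrays of Per1 also lay above the E2 arrays, with a difference of 0.18 (SE 0.0576, adjusted p = 0.0557) that did not pass the test, and which passed it with the pool number as a block, with array weights and without SPI array 3 or SPI+E2 array 3 (adjusted p between 0.0123 and 0.183 over all alternatives). At an unadjusted limma p under 0.05, 3 were lower in SPI+E2 than in SPI (Per3, Dbp and Bhlhe41) and 0 lower in SPI+E2 than in E2. The shares of all genes given above are at an adjusted p and are no background for these unadjusted counts. Any 2 of these 3 comparisons share a group of arrays.

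The interaction asks whether the effect of SPI was the same with and without E2. It is the difference between SPI+E2 and E2 minus that between SPI and CAS, and it was called for 0 of 10 genes above 0, where 8.03% of all genes were called, and for 2 below 0, where 7.72% were. Dbp gave -0.27 (SE 0.0756, adjusted p = 0.0319) and Nr1d1 gave -0.28 (SE 0.0752, adjusted p = 0.0244). For Dbp, the difference that went with soy was 0.31 under E2 and 0.58 without E2. For Nr1d1 it was -0.086 under E2 and 0.20 without E2. The Dbp call was lost with quantile normalization, with the pool number as a block and without CAS array 1 or 3, any SPI array, E2 array 3 or SPI+E2 array 2 or 3 (adjusted p up to 0.102), and the Nr1d1 call without CAS array 2, SPI array 2 or 3, E2 array 3 or SPI+E2 array 2 (adjusted p up to 0.0608). Tested as a single probe set among all probe sets, Dbp was not called for the interaction (adjusted p = 0.0627). Cry1 had 0.36 (SE 0.121, adjusted p = 0.0693), Bhlhe41 -0.28 (SE 0.0998, adjusted p = 0.0813), Tef -0.24 (SE 0.0822, adjusted p = 0.0705) and Nr1d2 -0.21 (SE 0.0675, adjusted p = 0.0602), which did not pass. Of the 3 Nr1d2 probe sets, 1 was called for the interaction, at -0.30 (SE 0.0759, adjusted p = 0.0261), and the others stood at -0.17 and -0.15. At an unadjusted p under 0.05, 2 genes were above 0 (Cry1 and Bhlhe40).

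Other clock regulators were measured beside the 10 genes. Of 16 further regulators listed, 12 were measured. With SPI, 6 of these 12 were lower than in CAS, where 14.6% of all genes were, and 0 higher, where 10.7% were. With E2, 1 was higher, beside 6.98% of all genes, and 0 lower, beside 7.23%. With SPI+E2, 0 were higher, beside 5.8%, and 1 lower, beside 7.06%. At an unadjusted limma p under 0.05, 0 were higher with SPI, 0 lower with E2 and 1 higher with SPI+E2 (Bmal2). Their median differences were -0.16, 0.016 and 0.006. The 6 lower with SPI were the activators Bmal1, Clock and Npas2, the ROR receptor gene Rora, and the D-box factors Nfil3, a repressor, and Hlf, an activator. Without any one array the SPI count was between 5 and 7.

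Bmal1, the partner of CLOCK, whose window above holds the ROR and REV-ERB element, read -0.32, -0.25 and -0.41 in the SPI arrays, 0.19, 0.14 and 0.27 in the E2 arrays, between -0.024 and 0.0003 in the SPI+E2 arrays, and -0.0055, 0.0032 and 0.26 in the CAS arrays. The SPI arrays were the 3 lowest. SPI was lower than CAS with a difference of -0.41 (SE 0.0697, adjusted p = 0.00123) and lower than E2 with one of -0.52 (SE 0.0697, adjusted p = 0.000257), and SPI+E2 was higher than SPI by 0.32 (SE 0.0697, adjusted p = 0.0083). Npas2, which can stand in for CLOCK, showed the same order of SPI below the rest, with -0.67, -0.52 and -0.30 in the SPI arrays and 0.24, 0.27 and 0.32 in the E2 arrays, between -0.0001 and 0.15 in the SPI+E2 arrays and between -0.084 and 0.085 in the CAS arrays. It gave -0.49 (SE 0.0836, adjusted p = 0.00123) for SPI and 0.28 (SE 0.0836, adjusted p = 0.0459) for E2 against CAS. The E2 call was lost without any one of 9 arrays, namely each of the CAS and E2 arrays, SPI array 2 and SPI+E2 arrays 1 and 2, and with trend and robust variances (adjusted p up to 0.157). It was also not called when Npas2 was tested as a single probe set (adjusted p = 0.0706). Clock read -0.10, -0.25 and -0.16 in the SPI arrays, 0.10, 0.11 and 0.16 in the E2 arrays, -0.072, 0.067 and 0.073 in the SPI+E2 arrays and 0.066, 0.0022 and -0.0057 in the CAS arrays, with -0.19 (SE 0.0525, adjusted p = 0.0193) for SPI against CAS. That call was lost without CAS array 1 or SPI array 2 (adjusted p up to 0.0776), and 1 of 4 probe sets of Clock was called.

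Nfil3, which represses from the D-box that Dbp and Tef activate, read -0.46, -0.52 and -0.38 in the SPI arrays, 0.13, 0.12 and 0.083 in the E2 arrays, 0.0071, 0.074 and -0.051 in the SPI+E2 arrays and -0.058, 0.019 and -0.0071 in the CAS arrays. The SPI arrays lay far below the other 9, with differences of -0.44 (SE 0.0471, adjusted p = 4.65e-05) against CAS and -0.57 (SE 0.0471, adjusted p = 9.97e-06) against E2, and SPI+E2 exceeded SPI by 0.46 (SE 0.0471, adjusted p = 3.61e-05). Rora, which activates Bmal1 through the element that the REV-ERBs block, had -0.33, -0.18 and -0.44 in the SPI arrays, between -0.078 and -0.017 in the E2 arrays, between -0.11 and 0.048 in the SPI+E2 arrays and between 0.06 and 0.12 in the CAS arrays. SPI gave -0.40 (SE 0.0616, adjusted p = 0.000608) against CAS. One of its 2 probe sets was called, at -0.68 (SE 0.079, adjusted p = 0.000124), and the other was at -0.13 (SE 0.0883, adjusted p = 0.367). Hlf, the third activator of the Dbp family, read -0.12, -0.052 and -0.032 in the SPI arrays, against 0.12, 0.11 and 0.16 in the CAS arrays, which lay above all others. The differences of Hlf were -0.20 (SE 0.0377, adjusted p = 0.00282) for SPI, -0.059 (SE 0.0377, adjusted p = 0.385) for E2 and -0.17 (SE 0.0377, adjusted p = 0.0134) for SPI+E2 against CAS, and the SPI+E2 call was lost without CAS array 3 (adjusted p = 0.0586). The 4 probe sets of Hlf disagreed, and follow from lowest to highest within each comparison, so their order changes between comparisons. Against CAS, SPI gave -0.27, -0.25, -0.25 and -0.014, and SPI+E2 gave -0.32, -0.26, -0.24 and 0.14, with the last not called. E2 gave -0.24 (SE 0.0659, adjusted p = 0.0424), -0.195, 0.091 and 0.11, with only the first called. SPI against E2 gave -0.36 (SE 0.0649, adjusted p = 0.00269), -0.12, -0.055 and -0.0091, with only the first called. The probe set called for E2 against CAS is another one, and is the last here, at -0.0091.

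**Figure D3:**
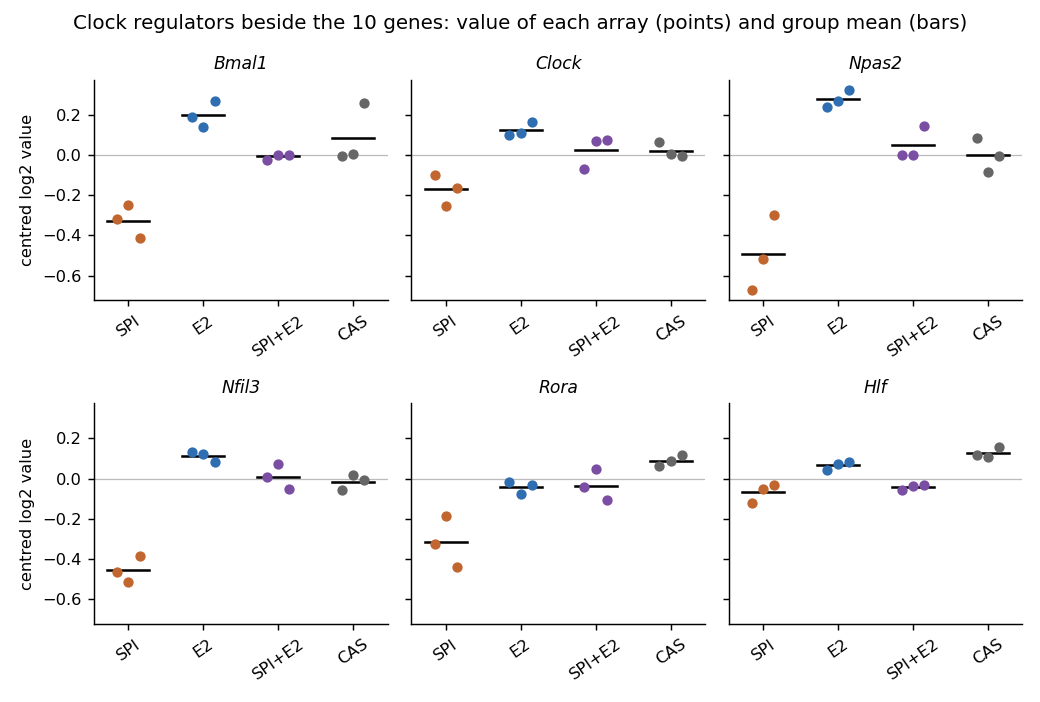
Centred log2 value (vertical axis) of 6 clock regulators in each array (points) of the 4 groups (horizontal axis), with the group mean as a bar. In Bmal1, Clock, Npas2, Nfil3 and Rora the 3 SPI arrays lie below all 9 others, and in Hlf the 3 CAS arrays lie above all others.

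Between SPI and E2, 6 of the 12 regulators were lower with SPI, where 13% of all genes were, and 0 higher, where 11.1% were. Rora was among the 6, with 1 of its 2 probe sets called, at -0.67 (adjusted p = 0.000198), and the other at 0.12 (adjusted p = 0.392). SPI+E2 had 5 higher than SPI, beside 9.12% of all genes, and 0 lower, beside 8%. SPI+E2 against E2 had 0 of 12 called as genes by limma, beside 7.32% of all genes higher and 8.23% lower, and 3 lower (Bmal1, Npas2 and Hlf) at an unadjusted p under 0.05. Single probe sets were called lower there, of Clock at -0.25 (SE 0.058, adjusted p = 0.0168) and of Hlf at -0.33 (SE 0.0649, adjusted p = 0.00766). Another probe set of each stood above 0, at 0.30 for Clock and 0.037 for Hlf, and was not called. When any one array was left out, the count of SPI against E2 was between 5 and 6 and that of SPI+E2 against SPI between 4 and 5. In a fit of the 2 groups SPI+E2 against SPI had 3, with Rora (adjusted p = 0.064) and Clock (adjusted p = 0.112) lost, and the Clock call, at 0.19 (SE 0.0525, adjusted p = 0.0253) in the fit of all groups, was also lost with the median over probe sets and without SPI array 2 or 3 or SPI+E2 array 2 or 3. The Hlf call of SPI against E2 was lost in a fit of the 2 groups, with the median over probe sets and without SPI array 1 or E2 array 2 or 3 (adjusted p up to 0.133). The interaction was called for 2 of the 12 regulators, Rora at 0.41 (SE 0.0871, adjusted p = 0.00703) and Nfil3 at 0.34 (SE 0.0666, adjusted p = 0.00455). Both were above 0 and called under every alternative fitted per gene. Of the 2 Rora probe sets, 1 was called for the interaction, at 0.48 (adjusted p = 0.018), and the other gave 0.35 (adjusted p = 0.117). Among all genes the interaction was called above 0 for 8.03% and below 0 for 7.72%. The remaining regulators, Bmal2, Cry2, Rorb, Csnk1d, Csnk1e and Btrc, were not called in any comparison as genes, and their differences from CAS lay between -0.12 and 0.24. Csnk1d and Csnk1e encode kinases and Btrc a ubiquitin ligase subunit that mark PER proteins for decay. Single probe sets of these genes were called. Of 5 probe sets of Csnk1d, 1 was higher with SPI than in CAS by 0.22 (SE 0.0482, adjusted p = 0.00832), and the same probe set was lower with SPI+E2 than with SPI, at -0.16 (SE 0.0482, adjusted p = 0.0479), with an interaction of -0.24 (SE 0.0681, adjusted p = 0.0454). Another Csnk1d probe set was lower with SPI than with E2, at -0.28 (SE 0.0811, adjusted p = 0.0361). Of 3 Btrc probe sets, 1 was higher with SPI than in CAS by 0.20 (SE 0.0573, adjusted p = 0.0359), while the others stood at -0.19 and -0.058.

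Probe sets of the same gene differed in their calls. Against CAS, 6 of the 16 probe sets of the clock genes were higher and 1 lower with SPI, where 17.3% of all probe sets were called, 2 higher and 1 lower with E2, where 9.35% were, and 3 higher with SPI+E2, where 8.48% were. Of the 2 Per2 probe sets, one read 0.27, 0.16 and 0.18 in the SPI arrays, -0.31, -0.40 and -0.40 in the E2 arrays, 0.019, 0.23 and 0.17 in the SPI+E2 arrays and -0.066, -0.11 and -0.019 in the CAS arrays. In it SPI lay above CAS by 0.27 (SE 0.0622, adjusted p = 0.0119), E2 lay below CAS with a difference of -0.30 (SE 0.0622, adjusted p = 0.00794), and SPI lay above E2 by 0.57 (SE 0.0622, adjusted p = 0.00011). The other Per2 probe set was not called in any of the 6 comparisons of groups, with differences between -0.061 and 0.024. Per3 had 1 probe set higher with SPI by 0.42 (SE 0.0578, adjusted p = 0.000438), while the other stood at -0.088 (SE 0.0467, adjusted p = 0.236). The called Per3 probe set was also lower with SPI+E2 than with SPI, at -0.22 (SE 0.0578, adjusted p = 0.028), and the other stood at 0.031 there. Of the 3 Nr1d2 probe sets 1 was called against CAS, where SPI gave 0.38 (SE 0.0536, adjusted p = 0.000504), E2 0.31 (SE 0.0536, adjusted p = 0.00296) and SPI+E2 0.39 (SE 0.0536, adjusted p = 0.00121). In the others SPI gave 0.17 and -0.013, E2 gave 0.20 and 0.095, and SPI+E2 gave 0.22 and -0.085. Among the 3 probe sets of Tef, 1 was higher with SPI by 0.29 (SE 0.0626, adjusted p = 0.00786), and the other differences were 0.19 and 0.25 and not called. Dbp, Cry1, Per1, Nr1d1, Bhlhe40 and Bhlhe41 have 1 probe set each.

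**Figure D4:**
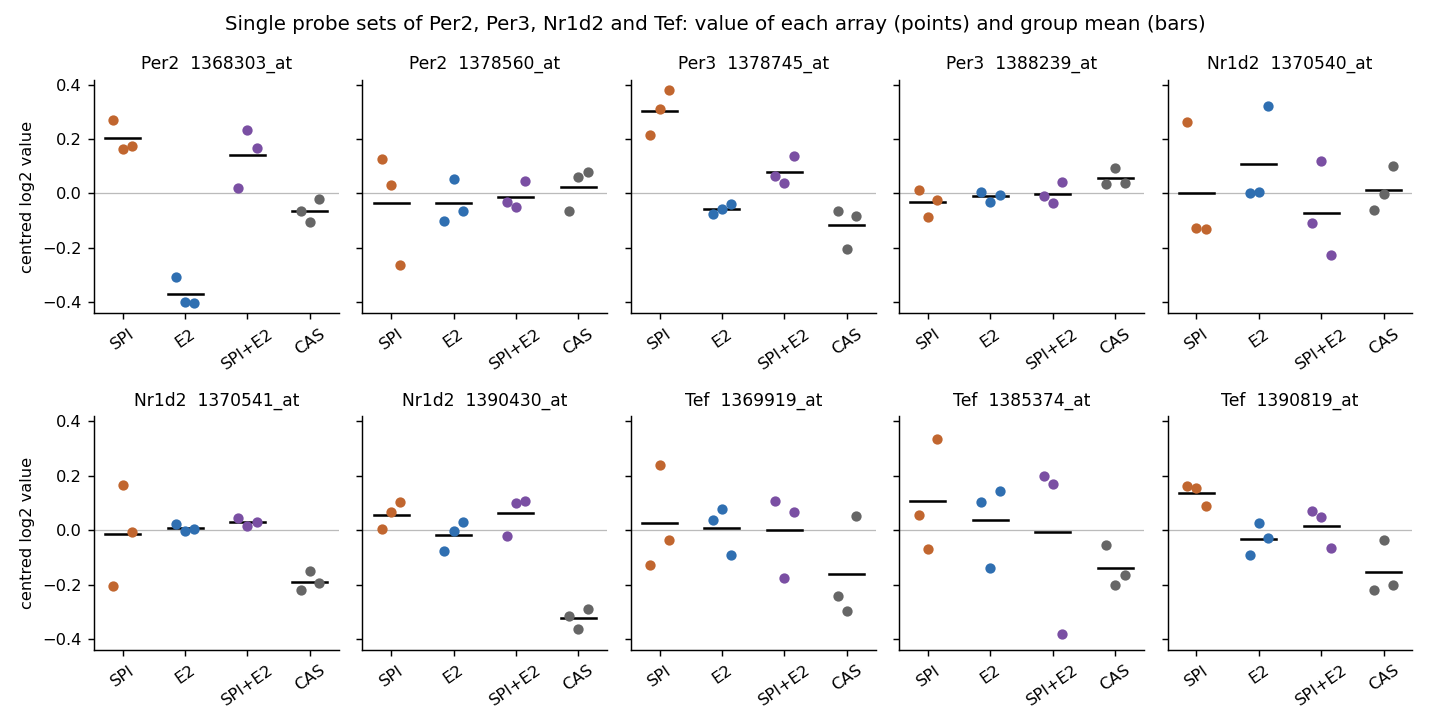
Centred log2 value (vertical axis) of each probe set of Per2, Per3, Nr1d2 and Tef in each array (points) of the 4 groups (horizontal axis), with the group mean as a bar. The first panels of Per2 and Per3 and the last panels of Nr1d2 and Tef hold the probe sets called against CAS, and the arrays of the 4 groups overlap in the second panel of Per2 and the first of Nr1d2.

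Genes that the clock is known to drive in other tissues were counted in the same way. Of 12 such output genes, 11 were measured, and 1 was higher and 2 lower with SPI, 1 higher and 1 lower with E2, and 2 higher and 1 lower with SPI+E2, with medians of -0.058, 0.011 and 0.025. Of all genes, 10.7% were higher and 14.6% lower with SPI, 6.98% higher and 7.23% lower with E2, and 5.8% higher and 7.06% lower with SPI+E2, so the counts with SPI and with E2 lie near the background. Fmo2, a flavin monooxygenase gene, was higher by 0.45 (SE 0.09, adjusted p = 0.00345) with SPI, 0.39 (adjusted p = 0.0127) with E2 and 0.49 (adjusted p = 0.00422) with SPI+E2. Wee1, whose kinase delays entry into mitosis, was lower with E2, at -0.36 (SE 0.0671, adjusted p = 0.00333). Leo1, of the RNA polymerase associated PAF complex, was lower with SPI, at -0.27 (adjusted p = 0.0114), and Nr1h3, the LXR alpha gene, was higher with SPI+E2, by 0.34 (adjusted p = 0.021).

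Glucocorticoids set the time of peripheral clocks and induce Per1 directly. Of 13 glucocorticoid-responsive genes listed, 12 were measured. Against CAS, 10.7% of all genes were higher and 14.6% lower with SPI, 6.98% and 7.23% with E2, and 5.8% and 7.06% with SPI+E2. Of the 12 listed genes, 3 were higher and 4 lower with SPI, 5 higher and 1 lower with E2, and 2 higher and 1 lower with SPI+E2, with medians of 0.038, 0.042 and 0.14. Their mean per array lay between -0.084 and -0.049 in SPI, between -0.016 and 0.023 in E2, between 0.039 and 0.092 in SPI+E2 and between -0.063 and -0.029 in CAS. The highest range was that of SPI+E2. Per1 was called in SPI+E2 and not in E2, where more of the listed genes were called higher (5 beside 2). Pdk4, a brake on pyruvate oxidation, was higher by 0.34 (adjusted p = 0.00141) with E2 and by 0.55 (adjusted p = 0.000108) with SPI+E2. Dusp1, a MAP kinase phosphatase gene, was lower, at -0.39 (adjusted p = 0.00106) with SPI and -0.32 (adjusted p = 0.00775) with SPI+E2. Cdkn1a, the p21 gene, was at -0.38 (adjusted p = 0.000486) with SPI. The part of glucocorticoids in the clock gene values was not tested.

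Markers of other tissues of the limb also differed between the groups. For comparison with CAS, the shares of all genes were 10.7% higher and 14.6% lower with SPI, 6.98% and 7.23% with E2, and 5.8% and 7.06% with SPI+E2. All 10 neuron markers were higher with SPI and with E2, and 7 of 10 with SPI+E2. Their mean per array lay between 0.41 and 0.52 in SPI, between 0.27 and 0.32 in E2, between -0.26 and -0.24 in SPI+E2 and between -0.53 and -0.48 in CAS, so that SPI and E2 lay apart from SPI+E2 and CAS. Of 8 chondrocyte markers, 7, 5 and 7 were lower with SPI, E2 and SPI+E2, and the mean per array lay between -0.40 and -0.36 in SPI, 0.041 and 0.093 in E2, -0.065 and -0.044 in SPI+E2 and 0.38 and 0.43 in CAS. Of 8 erythroid markers, 6, 8 and 7 were lower, with 0.065 to 0.09 in SPI, -0.37 to -0.30 in E2, -0.062 to -0.046 in SPI+E2 and 0.46 to 0.47 in CAS. The chondrocyte means ran from lowest to highest in the order SPI, SPI+E2, E2 and CAS, and Dbp ran from highest to lowest in that order. The neuron and erythroid means ran in other orders, and the likeness of these orders was not tested.

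Skeletal muscle and fat are tissues with strong clocks. The shares of all genes higher and lower against CAS are those given above for the other markers. Of 10 muscle markers, 6 were lower with SPI, 0 were called with E2 and 1 was higher with SPI+E2. The mean per array of the muscle markers lay between -0.19 and -0.13 in SPI, 0.016 and 0.035 in E2, -0.002 and 0.05 in SPI+E2 and 0.003 and 0.031 in CAS, so that SPI lay below the rest as it did for Bmal1, Npas2 and Nfil3. Of 10 adipocyte markers, 7 were lower with SPI, 5 lower and 1 higher with E2, and 4 lower and 1 higher with SPI+E2, and their means lay between -0.21 and -0.11 in SPI, -0.14 and -0.10 in E2, 0.08 and 0.14 in SPI+E2 and 0.20 and 0.22 in CAS. Of 8 osteoblast markers measured, 1 was lower with SPI, Dlx5, at -0.18 (adjusted p = 0.0177), 0 were called with E2, and 1 was lower with SPI+E2, Sparc, at -0.14 (adjusted p = 0.0211). These osteoblast counts lie near the shares of all genes lower, 14.6% with SPI and 7.06% with SPI+E2. The part of the other tissues in the clock gene values was not tested, and since the values are centred it cannot be said which markers lie at background.

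Across the 12 arrays, which hold 4 groups of 3 and so are not independent points, Dbp ran with Per3 (Pearson r = 0.825) and Tef (0.755) and against Hlf (-0.928), Cry1 (-0.802) and Bmal1 (-0.739). Per3 ran against Bmal1 (-0.858), and Nfil3 ran with Npas2 (0.919). Nr1d1 ran with Nr1d2 (0.71) and had r = 0.231 with Dbp and 0.294 with Bmal1. Among all 14217 genes, those most like Dbp over the 12 arrays were Shfl (0.969), Bscl2 (0.956), 6330403K07Rikl (0.955), Snrnp70 (0.952) and Mink1 (0.95), and those most opposed were Kazald1 (-0.979), Mgst3 (-0.972), C1qtnf3 (-0.969), Lrrc39 (-0.967) and Klf4 (-0.96). Most like Per1 were Hmga2 (0.92), Cfhr4 (0.92), Eya2 (0.914), Fbxw4 (0.907) and Sh3gl1 (0.906), and most opposed Cacybp (-0.938), Marcks (-0.92), Taf1 (-0.914), Sec63 (-0.909) and Hars1 (-0.909). Most like Cry1 were Sgcb (0.965), Cdk7 (0.959), Pts (0.958), Magoh (0.956) and Pex2 (0.956), and most opposed C2cd4a (-0.967), Zfp57 (-0.948), Hapln4 (-0.939), Efnb3 (-0.936) and Ptpn23 (-0.93). These are descriptions of the 12 arrays, taken from all genes, and carry no test.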

How the data were processed

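RNA of 12 pools was hybridised to Affymetrix GeneChip rat genome arrays. The authors processed the probe intensities with the robust multiarray algorithm (GCOS and RMA in the submitters' processing notes, no version given) to log2 values and then normalized per chip and per gene in GeneSpring 7.3, and the deposited log2 values are centred per probe set. The base of the logarithm is stated for the first step only. Probe intensities were not used here, so signal over background and levels are unknown, and 0 columns were left out.

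Of 31099 probe sets 57 controls were left out. The platform annotation gave 1 symbol to 20826 probe sets, several to 436 and none to 9780. Probe sets with 1 symbol were averaged per gene, since centred values cannot rank probe sets by level. Groups came from the sample labels. A linear model over 4 groups (8 residual degrees of freedom) was fitted with limma 3.58.1 (statmod 1.5.0, R 4.3.3), with Benjamini-Hochberg adjustment over all genes, for 6 pairwise differences, the interaction and the F test. The methods' two-way ANOVA corresponds to the interaction. The steps were tested on simulated data for SPI against CAS with 14217 genes, of which 200 were changed. At a log2 change of 0.6 the fit called 91.5% of them, and at 0.3 it called 42%, so smaller differences were often below what 3 arrays a group can show.

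The clock genes and the lists of regulators, output genes, glucocorticoid-responsive genes and markers were chosen with earlier results of these data known. The text names all 10 clock genes with their values, probe sets that disagree, every measured regulator, up to 2 called genes with the largest change of each other list, and the 5 genes most and least like Dbp, Per1 and Cry1. Start-site windows were read from RefSeq sequences of GRCr8. Each result was also computed with quantile normalization, the pool number as a replicate block, array weights, only the 2 groups compared, trend and robust variances, single probe sets, the median over probe sets, one-way ANOVA, or one array left out.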

Additional observations from a re-analysis of the deposited data

Results flagged for a closer look

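The effect of SPI differed between rats with and without E2 in 2 of the 10 clock genes and in 2 of the 12 further regulators measured, by the test of the interaction in limma. Across all genes, the interaction was called above 0 for 8.03% and below 0 for 7.72%. It was -0.27 log2 units for Dbp (SE 0.0756, adjusted p = 0.0319) and -0.28 for Nr1d1 (SE 0.0752, adjusted p = 0.0244), and 0.41 for Rora (SE 0.0871, adjusted p = 0.00703) and 0.34 for Nfil3 (SE 0.0666, adjusted p = 0.00455). The calls of Dbp and Nr1d1 were lost under some alternatives, with adjusted p up to 0.102 and 0.0608, and those of Rora and Nfil3 under none fitted per gene. One of the 2 Rora probe sets was not called for the interaction, at 0.35 (adjusted p = 0.117).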

How the results depend on the processing

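Of 70 differences of the 10 clock genes, 22 were called. In the alternatives fitted per gene, 14 of these held under every one, 8 were lost under some, and 0 changed sign. Of the 48 not called, 12 passed the test under some alternative fitted per gene. Single probe sets of Per2, Per3, Tef and Nr1d2 were compared apart from these fits. In them, 8 differences called per gene kept their sign and were not called, and 4 turned sign. Another 4, not called per gene, were called. The count of clock genes called for the interaction was 1 with a replicate block and 1 with quantile normalization, in place of 2. For E2 against CAS it was 4 in a fit of the 2 groups and 4 with array weights, in place of 2. For SPI+E2 against CAS it was 2 in a fit of the 2 groups, in place of 4, and for SPI+E2 against SPI it was 0 in that fit and 2 with single probe sets, in place of 1. The count of regulators called for SPI+E2 against SPI was 3 in a fit of the 2 groups, in place of 5. When each array was left out in turn, the count of clock genes lay between 4 and 6 for SPI against CAS, 1 and 3 for E2 against CAS, 2 and 5 for SPI+E2 against CAS, 5 and 5 for SPI against E2, 0 and 2 for SPI+E2 against SPI, 2 and 3 for SPI+E2 against E2, 1 and 3 for the interaction, and 5 and 8 for the F test. The cause was not tested. In 1 of its 3 probe sets the sign of Nr1d2 turned, at -0.0129 for SPI and -0.0846 for SPI+E2 against CAS, and in 1 of 2 probe sets that of Per3, at -0.0877 for SPI against CAS and -0.0214 for SPI against E2. Deviations from the group means of arrays with the same pool number had correlations between -0.081 and 0.26 over 18 pairs, 6 of them over 0.1. For pool 3 they were all above 0, between 0.071 and 0.26, so a shared part by pool number is not excluded. Apart from the interaction, the replicate block left each count within 1.5 times. With the block the interaction of Dbp was not called (adjusted p = 0.0532) and SPI+E2 against E2 was called for Per1 (adjusted p = 0.0123). The block changed no other called difference of the clock genes or regulators, and the F test count of clock genes was 7 with it, in place of 8. Alternatives on background correction and dim probes could not be made from centred values, so what signal over background limits is not known.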
